A study of Rattus norvegicus with 8 samples.

Results

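The 10 genes described here encode Frizzled receptors (Fzd1, Fzd2, Fzd3, Fzd4, Fzd8 and Fzd9), the secreted Frizzled-related proteins Sfrp1 and Sfrp2, the feedback inhibitor Axin2 and the ligand Wnt5a. They were chosen with the measured ratios in view, because Fzd2 had a high one. Probe sets annotated to exactly 1 gene were found for 9 of the 10. Chip A held 8 of them and chip B 5, of 20347 single-gene probe sets for 13810 genes in all. Fzd9 had no such probe set and has no value here. The cells were labelled perineuronal oligodendrocytes, sorted by flow cytometry from rat brain at postnatal day 7 by a gate on A2B5, which marks immature glia, combined with OTMP. For each of the 4 biological replicates, biotin-labelled material made from total RNA was hybridized to both Affymetrix array types, chip A and chip B. This made 8 samples in 2 groups. There was 1 cell population, with no control group, and neither the strain nor how many rats made up a replicate is stated. Spreads and p-values below therefore concern these 4 replicates only.

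Wnt proteins are secreted ligands that bind Frizzled receptors on the cell surface, together with the co-receptors Lrp5 and Lrp6. In the canonical branch this stabilizes β-catenin, which joins TCF and LEF factors in the nucleus. Axin2 is a direct target of that branch and part of the complex that degrades β-catenin, so it closes a negative feedback loop, and in oligodendrocyte precursors Wnt signalling is known to hold back differentiation. Secreted Frizzled-related proteins bind Wnts outside the cell, and Wnt5a is known mainly for signalling without β-catenin.

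Each deposited value is a ratio against an unnamed reference level of the same probe set, read here as signal over reference. A ratio above 1 therefore means more signal than the reference, and neither brightness nor expression can be read from it, so ratios do not rank the expression of different genes. Array medians were 0.903 to 0.946 on chip A and 0.888 to 0.967 on chip B. Centring the arrays on them added 0.12 and 0.10 to the log2 ratios. Cell type lists were read by the same test as the pathway genes below, limma at an adjusted p of 0.05. Of all named genes, 9.23% had a higher probe set and 37.7% a lower one. A gene with more probe sets has more chances of a call, and the lists were not matched for that. A higher probe set was found for 11 of 14 astrocyte genes and a lower one for 4, and the counts were 8 and 3 of 12 neuronal genes. They were 4 and 1 of 6 ependymal and choroid plexus genes, 4 and 1 of 8 radial glial genes, 3 and 1 of 8 oligodendrocyte lineage genes and 2 and 1 of 8 mural cell and fibroblast genes. A higher probe set was found for 0 of 9 myelin genes, 0 of 9 microglial genes and 0 of 7 endothelial genes (1, 0 and 0 at an unadjusted p under 0.05, and 0 each with a trended, robust prior in limma), and a lower one for 4, 4 and 0. The median log2 ratio was 1.16 for the astrocyte list, 0.17 for the oligodendrocyte lineage list and -0.05 for the myelin list, so these ratios do not single out the labelled cell type, and the part of other cells in the members' ratios was not tested. The lineage markers did not move alike. Sox10, a transcription factor of the lineage, had 0.722, 0.401, 1.34 and 2.57 in replicates 1 to 4, below 1 in replicates 1 and 2 and above it in replicates 3 and 4, and it was not called (limma adjusted p = 0.999). Pdgfra, the growth factor receptor of precursors, had 1.75, 1.04, 2.76 and 2.60 (limma adjusted p = 0.0362), and Olig1 was at -0.07 ± 0.50 on the log2 scale (0.823). Both probe sets of Ptprz1 (0.90 and 0.86, limma adjusted p = 0.00112 and 0.00474) and of Bcan (1.37 and 0.71, 0.00047 and 0.000861) were called higher. An Olig2 probe set was called lower at -0.43 (0.00624), and the other stood at -0.03. Cspg4, at 0.34, and Nkx2-2, at -0.39, were not called. In a sorted population, more cells of a type and more RNA per cell cannot be told apart.

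Fzd2, a receptor that can act in both branches of Wnt signalling, had the highest ratios of the 13 member probe sets. The members were chosen because of it. Its probe set on chip A, made from the rat mRNA L02530, stood at 3.97, 4.00, 7.52 and 4.87 in replicates 1 to 4. All 4 values lay well above 1, 3 of them close together and replicate 3 highest. The mean log2 ratio was 2.30 ± 0.43 (SD, n = 4), a geometric mean ratio of 4.91. This put Fzd2 at rank 54 of 15866 probe sets on chip A and at rank 43 of the 12783 named by 1 gene. The mean stayed between 2.09 and 2.40 with any 1 replicate left out.

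**Figure D1:**
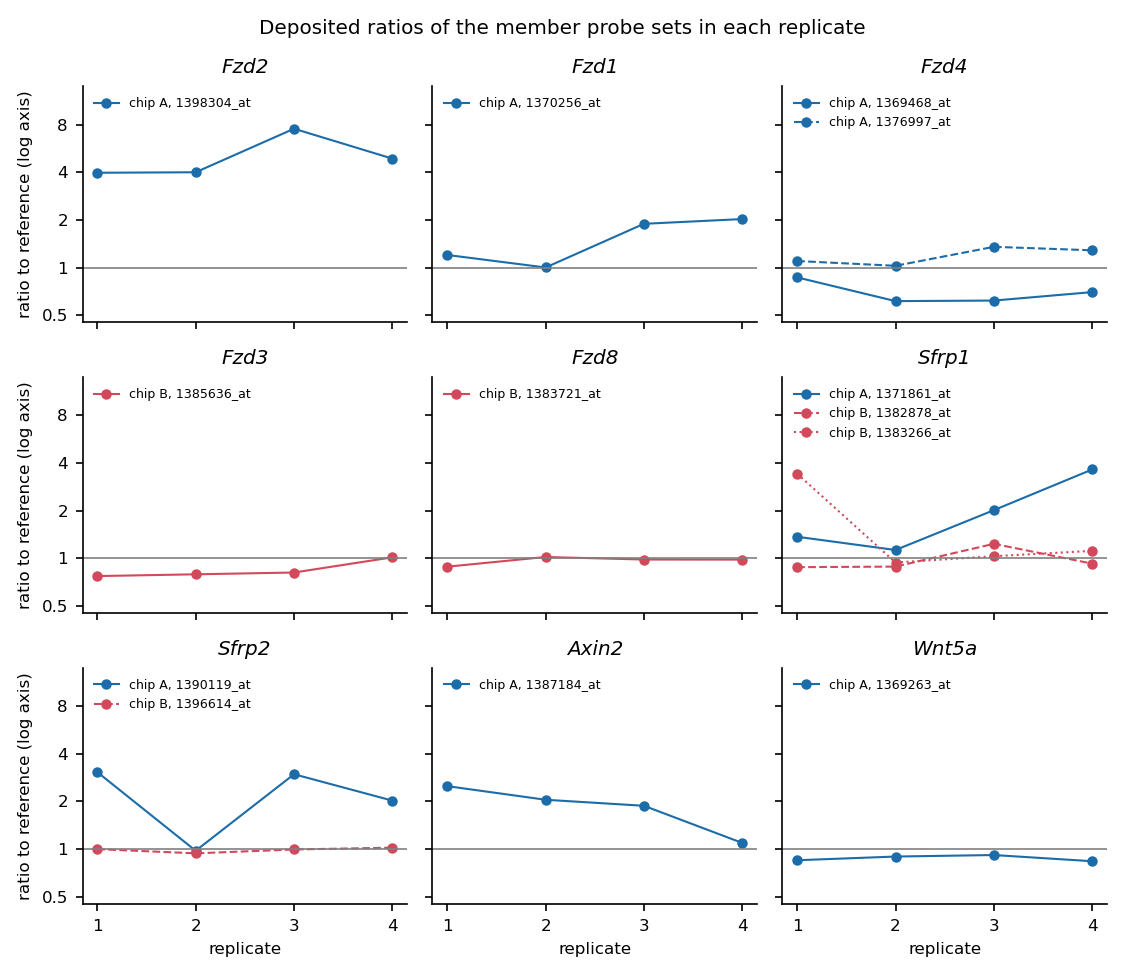
Deposited ratios (log axis) of the 13 member probe sets in replicates 1 to 4, by gene, chip A in blue and chip B in red; lines only link the points of a probe set. Fzd2 lies between 3.97 and 7.52 in every replicate, while Sfrp1 and Sfrp2 differ between replicates and between their probe sets.

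The 5 single-gene probe sets on chip A nearest to Fzd2 over the 4 replicates were found by Euclidean distance between log2 ratios. They belonged to Gabrb1, a GABA-A receptor subunit gene (distance 0.40), Entpd2, an ectonucleotidase gene (0.42), the adenosine receptor gene Adora2b (0.48), Tlcd1, which encodes a membrane protein (0.50), and Hsd11b1, whose enzyme activates glucocorticoids (0.52). Their ratios in replicate 3 were 6.13, 6.49, 5.91, 6.42 and 7.14 in the same order, in each case the highest of the 4 replicates, as for Fzd2. Among all chip A probe sets called higher by the test below, replicate 3 was the highest in 22.9% and replicate 1 in 39.3%. These neighbours were picked for their likeness, so the shared pattern is a description of 4 arrays.

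**Figure D2:**
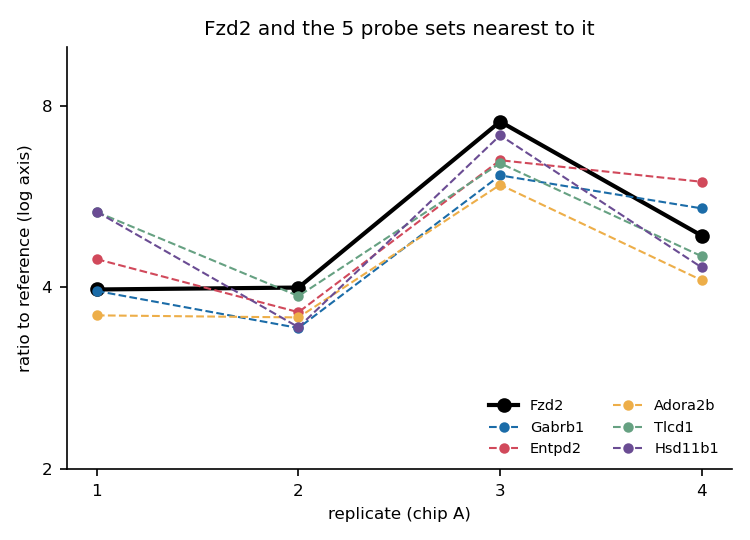
Ratio to the reference (log axis) of Fzd2 in black and of the 5 nearest single-gene probe sets on chip A in colour, by replicate; lines only link the points of a probe set. All 6 probe sets have their highest ratio in replicate 3, from 5.91 for Adora2b to 7.52 for Fzd2.

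The probe sets of the other Frizzled members had mean log2 ratios from -0.53 to 0.55. Fzd1, the close relative of Fzd2, had 1.201, 1.001, 1.89 and 2.02 on chip A (mean log2 ratio 0.55 ± 0.50, SD, n = 4). Replicates 3 and 4 were high and replicate 2 was at the reference, and the highest value of Fzd1, 2.02, was below the lowest of Fzd2, 3.97. The mean was 0.73 without replicate 2 and 0.39 without replicate 4. It stood at rank 1199 of 15866.

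Fzd4, which also serves as the receptor of norrin in blood vessels, had a pair of chip A probe sets that lay on opposite sides of 1 in every replicate. The probe set of the mRNA NM_022623 had 0.867, 0.614, 0.619 and 0.700 (-0.53 ± 0.23), and that of the EST BI277619 had 1.10, 1.03, 1.35 and 1.28 (0.24 ± 0.19). The first was highest in replicate 1 and the other in replicate 3, so the direction of Fzd4 depends on the probe set. The endothelial list had 0 of 7 genes called in either direction by limma, also 0 at an unadjusted p under 0.05, with list medians from -0.44 in replicate 1 to 0.72 in replicate 2. Its part in the Fzd4 values was not tested.

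Fzd3, a receptor known for its part in axon guidance, had 0.773, 0.793, 0.814 and 1.01 on chip B (-0.25 ± 0.18). Fzd8, another canonical receptor, had 0.886, 1.02, 0.983 and 0.982 there (-0.05 ± 0.09). Both held at most 1 value above 1. After median centring Fzd8 stood at 0.05, so its sign depends on the scaling.

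The 3 largest SDs of the 13 member probe sets belonged to Sfrp1 and Sfrp2. On chip A, Sfrp1 had 1.37, 1.13, 2.02 and 3.64 (0.88 ± 0.75), a 3.22-fold span, where the median span of all chip A probe sets was 1.39-fold and 11.9% spanned more than 2-fold. Replicate 4 carried much of its mean, which was 0.55 without it. A chip B probe set of Sfrp1 (EST AW144660) had 3.42, 0.941, 1.03 and 1.11 (0.47 ± 0.87), high in replicate 1 alone, and its mean was 0.04 without that replicate. The second chip B probe set (EST AI716896) had 0.880, 0.887, 1.24 and 0.926 (-0.04 ± 0.23), highest in replicate 3. The 3 Sfrp1 probe sets thus had their highest ratios in 3 different replicates, although same-numbered arrays of the 2 types deviated together over the probe sets they share. What separates the 3 was not tested.

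Sfrp2 had 3.06, 0.977, 2.97 and 2.02 on chip A (1.04 ± 0.77), the highest member mean after Fzd2. It was at the reference in replicate 2 and at 2.02 or more in the other 3, with a mean of 1.40 without replicate 2. Of the 9 cell type lists, 4 also had their lowest median log2 ratio in replicate 2. These were oligodendrocyte lineage (0.31, -0.24, 0.70 and 0.45 in replicates 1 to 4), mural cell and fibroblast (-0.00, -0.19, 0.63 and 0.31), astrocyte (1.22, 0.93, 1.27 and 0.95) and myelin (-0.06, -0.24, -0.01 and -0.20). Their part in the Sfrp2 values was not tested. The chip B probe set of Sfrp2 did not follow that of chip A, since it had 1, 0.941, 0.995 and 1.02 (-0.02 ± 0.05). On chip B, 23.0% of probe sets held exactly 1 on at least 1 array, and on chip A 0.914%.

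Wnt5a, a ligand that can bind Fzd2, had 0.851, 0.898, 0.918 and 0.839 on chip A (-0.19 ± 0.06). All 4 values lay just below 1 with little spread, and after division by the array medians they were 0.942, 0.966, 0.970 and 0.925. The mean log2 ratio after centring was -0.07. Replicates 1 and 4, the pair with the lower array medians, held the lower Wnt5a values.

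Axin2 had 2.50, 2.05, 1.88 and 1.09 on chip A (0.85 ± 0.51), above 1 in all 4 replicates and lowest in replicate 4. Its mean was 1.09 without replicate 4 and 0.69 without replicate 1. Replicate 4 was thus the lowest for Axin2 and the highest for the chip A probe sets of Sfrp1 and Fzd1. With 4 replicates no relation between these genes can be tested.

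Because Axin2 is the classical transcriptional target of the pathway, its start region is shown. RefSeq promoter windows (GRCr8, 250 bases before to 50 after each gene's start) were present for 7 of the 10 genes: Fzd1, Fzd4, Fzd8, Fzd9, Sfrp2, Axin2 and Wnt5a. They were searched on both strands for the TCF and LEF letters CTTTGAA, as well as for CTTTGAT, then also for CTTTGTA, and finally for CTTTGTT. Axin2 was the only gene of the 7 with a match. It had 2 that do not overlap, in the gene's own direction, starting 232 and 132 bases before the start site. At least 1 match was held by 17.1% of the 33469 windows and at least 2 by 2.12%. The GC content was 45.7% for Axin2, 58.3% for Wnt5a and 65.0% to 70.7% for the other 5, against a median of 51.7% over all windows. A match is a description of letters, not of binding. The window is chr10:94398535-94398834 on the plus strand, written 5′ to 3′ with the matches in capitals.
Axin2: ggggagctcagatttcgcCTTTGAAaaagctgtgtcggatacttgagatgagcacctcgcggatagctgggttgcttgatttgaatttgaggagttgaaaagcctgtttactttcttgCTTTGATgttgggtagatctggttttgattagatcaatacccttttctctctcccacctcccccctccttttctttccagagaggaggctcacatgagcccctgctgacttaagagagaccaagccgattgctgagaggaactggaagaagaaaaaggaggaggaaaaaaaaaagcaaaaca

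On chip A, 5 of the 8 member probe sets had all 4 values above 1, against 12.6% of all chip A probe sets. They were those of Fzd1, Fzd2, Sfrp1, Axin2 and the EST-derived one of Fzd4. All 4 values lay below 1 in 2 of the 8, against 39.1%. On chip B, 0 of 5 were wholly above 1 and 0 wholly below, against 7.76% and 36.8%. The members were picked from these ratios, so nothing is read from these counts. The 4 member probe sets on chip A with means from 0.55 to 1.04 (Fzd1, Axin2, Sfrp1 and Sfrp2) had SDs from 0.50 to 0.77, above those of 91.3% to 98.3% of chip A probe sets. Fzd2, with a mean of 2.30 beside 1.04 for the next member, had an SD at percentile 86.9. At the other end, Wnt5a lay at percentile 9.61 of the SDs on chip A and the chip B probe set of Sfrp2 at percentile 12.1 on its type.

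**Figure D3:**
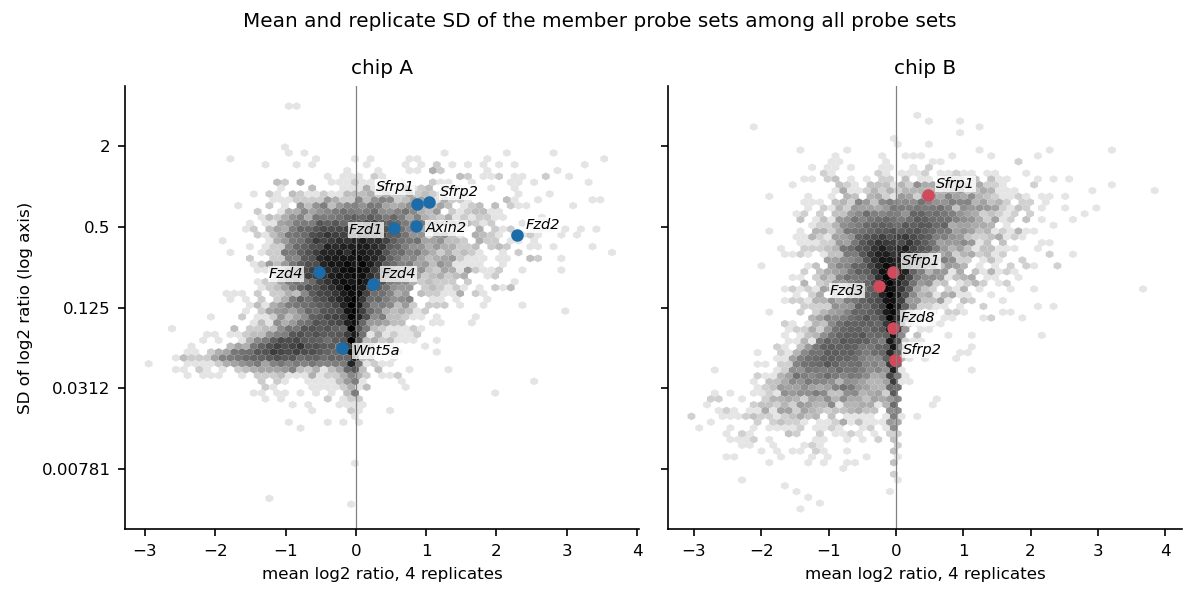
Mean log2 ratio over 4 replicates against its SD (log axis) for all probe sets of chip A and chip B in grey (darker where denser), with the member probe sets as points. Fzd2 lies far to the right at 2.30, Sfrp1 and Sfrp2 on chip A near the top of the SD range, and Wnt5a near the narrow low edge.

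As background for calls, limma was fitted on log2 ratios of all probe sets of an array type (two-sided against a ratio of 1, Benjamini-Hochberg adjusted p under 0.05). On chip A, 3 of the 8 member probe sets were called higher, against 9.21% of all probe sets, and 1 was called lower, against 30.1%. On chip B, 0 of 5 were called higher, against 5.08%, and 0 lower, against 27.1%. At an unadjusted p under 0.05, chip A had 6 member probe sets higher and 2 lower, while chip B had 0 higher and 1 lower. The shares of all probe sets at that cut-off were not counted, so these member counts have no background to be judged against. Those shares cannot be below the adjusted ones, 9.21% and 30.1% on chip A. With a trended, robust prior, the chip A counts were 3 and 1, beside 1171 and 4732 of all 15866 probe sets. Those of chip B were 0 and 0, beside 611 and 4144 of 15276. The members were picked from these same ratios, so the call of a member is no test of it, and nothing is read from the counts.

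The other genes of the pathway were taken from 6 lists of 131 genes, of which 105 had a single-gene probe set. By limma, 18 of these (17.1%) had a higher probe set and 44 (41.9%) a lower one, 6 genes having both. Among all 13810 named genes the shares were 9.23% and 37.7%, with 1.52% having both. Counting genes with calls in a single direction gave 12 higher and 38 lower pathway genes, against 7.7% and 36.1% of all named genes. The median log2 ratio was -0.07 for the pathway genes and -0.15 for all named genes, each gene taken by its median probe set. With the call decided by that probe set (the lower of a middle pair), 10 pathway genes (9.52%) were higher and 34 (32.4%) lower, against 5.59% and 33.5% of all named genes.

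**Figure D4:**
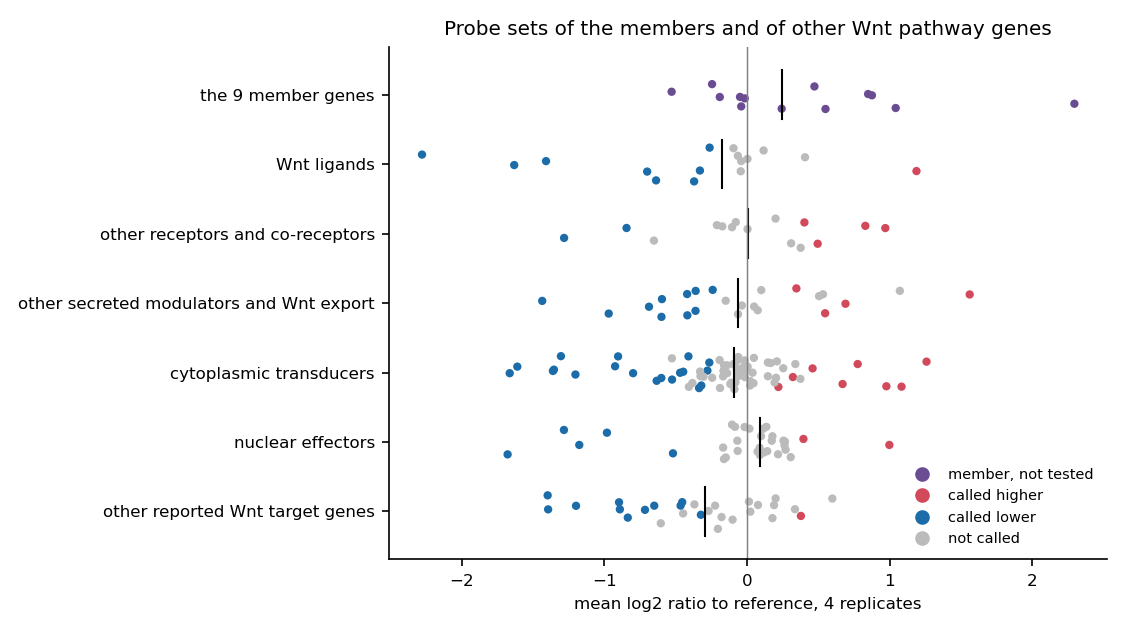
Mean log2 ratio over 4 replicates of each probe set of the 9 member genes and of the 6 lists of other Wnt pathway genes. Black bars are medians over probe sets. In the 6 lists, colours give limma calls at an adjusted p under 0.05. Fzd2, at 2.30, lies to the right of every probe set in the 6 lists, of which Sostdc1 at 1.56 is the highest.

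Of 12 other Wnt ligand genes, 1 had a higher probe set and 6 a lower one. Wnt7a, a ligand known from developing brain and its vessels, had 1.72, 1.82, 3.25 and 2.65 on chip B (1.19 ± 0.44, SD, n = 4, limma adjusted p = 0.00832). Its values were above 1 in 4 of 4 replicates, highest in replicates 3 and 4. Wnt11, a ligand of the branch without β-catenin, was lowest at -2.28 ± 0.02 (limma adjusted p = 5.93e-05), with 0.204, 0.209, 0.205 and 0.206. Wnt10a at -1.41 ± 0.04 (6.5e-05) and 1 of the 3 Wnt2 probe sets at -0.70 ± 0.17 (0.00259) were lower too. The list's median was -0.07.

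Of 11 other receptor and co-receptor genes, 4 had a higher probe set and 2 a lower one, with a list median of 0.25. Lgr6, a receptor of R-spondins, had 2.30, 1.61, 1.76 and 2.27 (0.97 ± 0.26, limma adjusted p = 0.00186), with all 4 values at least 1.61. Ptk7, a co-receptor of planar polarity, was at 0.83 ± 0.52 (limma adjusted p = 0.026), and Lrp6, the canonical co-receptor, at 0.50 ± 0.27 (0.0234). Ptk7 had 2.25, 2.20, 1.05 and 1.93, close to 1 in replicate 3 alone. Neither call survived the omission of replicate 1, 2 or 4, with limma adjusted p of 0.0823, 0.0717 and 0.0892 for Ptk7 and 0.0599, 0.0556 and 0.0805 for Lrp6. The list then had 2, 1 and 1 genes with a higher probe set. The Ptk7 call was also lost after quantile normalization (0.0507). The other Lrp6 probe set, on chip B, stood at 0.00. Lrp5, the relative of Lrp6, had a lower probe set at -0.85 ± 0.06 (0.000215) and another at 0.20. Fzd5, a Frizzled receptor outside the member list, had a lower probe set at -1.28 ± 0.03 (6.89e-05) and a second at -0.17.

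Of 14 other secreted modulator and Wnt export genes, 3 had a higher probe set and 9 a lower one, and the list's median was -0.23. Sostdc1, which encodes an antagonist of BMPs and Wnts, was at 1.56 ± 1.22 (limma adjusted p = 0.0472), with 2.32, 5.82, 0.984 and 5.71. Replicate 3 lay at the reference. The limma adjusted p was 0.0898, 0.115 and 0.146 when replicate 1, 2 or 4 was omitted, 0.0623 after centring and 0.0935 after quantile normalization, all above the threshold of 0.05. The ependymal and choroid plexus list, with 4 of 6 genes called higher and 1 lower, had its lowest median, 0.23, in replicate 3 and its highest, 1.42, in replicate 2. Its part in the Sostdc1 values was not tested. Wls, needed for Wnt secretion, was at 0.55 ± 0.18 (limma adjusted p = 0.00737), with 1.34, 1.41, 1.75 and 1.38, and its other probe set was called higher at 0.35. Dkk3, a member of the Dickkopf family, had 4 probe sets from -0.42 to 0.69, 1 called in each direction. Lower probe sets included those of the R-spondin gene Rspo3 at -1.44 ± 0.01 (6.11e-05), Sost at -0.97 ± 0.06 (0.000223) and Dkk2 at -0.69 ± 0.09 (0.000674), of which Sost and Dkk2 encode Lrp5 and Lrp6 antagonists. The other probe sets of Rspo3 and Sost stood at 0.05 and -0.06.

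Of 33 cytoplasmic transducer genes, 7 had a higher probe set and 13 a lower one, with a median of -0.06. The planar polarity gene Vangl2 was highest at 1.26 ± 0.56 (limma adjusted p = 0.00786), with 3.51, 1.41, 2.80 and 2.37, all above 1. Its other probe set stood at 0.21. Daam2, a Dishevelled partner, was at 0.98 ± 0.53 (limma adjusted p = 0.0157), and Tnks2, a tankyrase that targets Axin for degradation, at 1.08 ± 0.41 (0.00947) with another of its 4 probe sets lower at -0.80. For Ctnnb1, which encodes β-catenin, 1 of 4 probe sets was lower at -1.66 ± 0.07 (9.73e-05) and the highest stood at 0.04. The casein kinase genes Csnk1g3 at -1.61 ± 0.05 (9.73e-05) and Csnk1e at -1.36 ± 0.07 (0.000112) also had lower probe sets, while the highest Csnk1g3 probe set was at 0.00.

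Of 18 nuclear effector genes, 2 had a higher probe set and 4 a lower one, with a median of 0.07. Tle2, a Groucho co-repressor gene, had 1.71, 2.13, 1.63 and 2.69 (0.998 ± 0.33, limma adjusted p = 0.00341), with all 4 values above 1.5. The co-repressor gene Ctbp2 had a probe set at 0.40 ± 0.24 (limma adjusted p = 0.0373) and another at -0.52. Its higher call was lost with a trended, robust prior (0.0706) and without replicate 1 (0.121), 3 (0.115) or 4 (0.11), which left 1 gene of the list. Tle5 at -1.68 ± 0.06 (9.73e-05), Sox17 at -1.28 ± 0.04 (7.18e-05) and Chd8 at -0.98 ± 0.06 (0.000224) had lower probe sets, with the highest probe set of each at 0.11, 0.14 and 0.14. The DNA-binding factors Tcf7, Tcf7l1, Tcf7l2 and Lef1 had no call, with probe set means from -0.07 to 0.27.

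Of 17 other reported target genes, 1 had a higher probe set and 10 a lower one, with a median of -0.32. The higher one was Cd44, an adhesion receptor gene, at 0.38 ± 0.17 (limma adjusted p = 0.0223), whose other probe set was lower at -0.90. The higher call was lost with a trended, robust prior (0.0585) and without replicate 1 (0.0654) or 3 (0.0661). Lower probe sets included those of the Fos family gene Fosl1 at -1.40 ± 0.04 (0.000102), the activin antagonist gene Fst at -1.39 ± 0.06 (0.000104) and Twist1 at -1.20 ± 0.06 (0.000135). The other probe sets of Fst and Twist1 stood at 0.08 and 0.20. Axin2, at 0.85, was thus above the highest mean of this list, which was 0.60 for Id2. That was set by ratios to each probe set's own reference, and no test was made of it.

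The spread of the pathway's called probe sets differed by direction, and a small SD itself favours a call. On chip A the median SD was 0.0757 for the 32 pathway probe sets called lower and 0.254 for the 14 called higher, beside 0.114 and 0.280 for all chip A probe sets so called. The SD was under 0.1 in 68.8% of those 32, while the Prickle2 and Bambi probe sets called lower had SDs of 0.31 to 0.33. In 22 of the 32 (68.8%) replicates 1 and 4 were both below replicates 2 and 3, the order of the array medians, which held for 58.1% of all chip A probe sets called lower and for 34.3% of all. Wnt5a had this order too. Ratios cannot show whether such probe sets detected their transcripts.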

How the data were processed

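Total RNA was purified by a Qiagen column method and biotin-labelled for small samples, per the labels' protocols. The submitters' processing notes name RMA without a version. The deposited values are linear ratios, with the reference and the step from RMA values to ratios not given in the sources used here. Depth has no meaning for arrays; their number, 4 of each type, limits the precision. Tests used log2 ratios. Without the 57 control probe sets of each type, chip A had 15866 and chip B 15276. Genes came from the platform annotation: 12783 and 7564 probe sets had 1 symbol, 312 and 100 several, 2771 and 7612 none. Of these single-gene IDs 12748 and 7524 were in RefSeq (GRCr8), which changed 0 symbols.

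Each type was fitted separately with limma 3.58.1 in R 4.3.3 (intercept, lmFit, eBayes, two-sided, Benjamini-Hochberg at 0.05), tested on simulated data. Members were part of these fits, but no p-value is printed for them because they were chosen on these ratios. Members, lists and tests were chosen with earlier results of these data known. A pathway gene counted by any called single-gene probe set. The 100 probe sets on both types deviated together in same-numbered arrays (r = 0.736 to 0.823 across probe sets, and -0.50 to -0.01 between different numbers), so replicate numbers carry over between types. Named were all member probe sets, up to 3 genes per direction and list with the largest absolute means among called probe sets, and the 5 probe sets nearest to Fzd2. Genes named beside these, such as Id2, Tcf7, Lef1, Prickle2 and Bambi, were chosen after their values were seen. The planned alias Tcf3 for Tcf7l1 was dropped because it names another gene. Alternatives were median centring, quantile normalization, a trended and robust prior, leaving out each replicate, each gene's median probe set, and the 95th percentile of a panel of genes of other organs as the level. Chip B had 6 panel probe sets, below the minimum of 20, so each chip A level was carried to the chip B array of the same number, shifted by how far the 100 shared probe sets differed in the median.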

Additional observations from a re-analysis of the deposited data

Results flagged for a closer look

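Among the 13 member probe sets, 2 had a replicate far from the other 3, measured as the gap to the nearest value over the whole range on the log2 scale. Both belong to Sfrp1 on chip B. In the probe set of EST AW144660, replicate 1 had a ratio of 3.424 and the gap was 0.869 of the range. In that of EST AI716896, replicate 3 had 1.235 and the gap was 0.850. Both exceed Dixon's 95% critical value for 4 samples, which chance exceeds in about 1 group of 20.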

How the results depend on the processing

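Counts of higher probe sets were 1462 on chip A and 776 on chip B, and 483 and 461 when the test asked for values above the 95th percentile of the panel of other organs in a one-sided test. That level was a ratio of 1.03 to 1.32 on chip A and, carried over from chip A, 0.914 to 1.26 on chip B, below 1 in replicate 1 alone. The cause was not tested. Under centring, quantile normalization, the trended prior and omission of a replicate, the counts of higher and lower probe sets stayed within 1.5 times. With a replicate left out, they ran from 1073 to 1343 higher and from 3782 to 4292 lower on chip A, and from 556 to 860 higher and from 3654 to 3771 lower on chip B. Higher calls made up 23.5% of chip A calls as deposited and 33.7% after centring. For the 105 other pathway genes, the 18 with a higher probe set became 10 when the median probe set decided, and the 44 with a lower one 34. That rule cannot raise either count, and taking the lower of a middle pair works against higher calls. With a replicate left out, 12 to 15 genes had a higher probe set and 39 to 41 a lower one. Of 52 member means with a replicate left out, all lay within 1 SD of the full mean. Omitting a replicate cannot move a mean by more than 1 SD of the full set, whatever the values. That outcome therefore says nothing about how stable the means are. After centring, 10 of 13 member means lay within 1 SD of the mean as deposited. The exceptions were Fzd8 (0.05), Sfrp2 on chip B (0.09) and Wnt5a (-0.07). After quantile normalization, 13 of 13 lay within 1 SD. No paired analysis was possible because only the 2 array types share replicate numbers and the design implies no comparison of RNA levels between them. Signal over background is unknown, since the files hold ratios.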
